A study of Mus musculus with 8 samples.

Results

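NRF2, encoded by Nfe2l2, is a transcription factor that switches on genes against oxidants and electrophiles, and KEAP1 is its sensor and inhibitor. The 10 genes described here are that pair and 8 antioxidant or detoxifying genes: Hmox1, Nqo1, Gclc, Gclm, Txnrd1, Srxn1, Sod2 and Prdx1. They were measured in lymphatic endothelial cells, the inner lining of vessels that return tissue fluid and immune cells to the blood, sorted from the ear skin of female FVB mice aged 8 to 10 weeks. A member was read only from probe sets whose platform annotation names that gene alone. By this rule 9 of the 10 genes were measured, on 21 of the 34945 probe sets naming 1 gene. Prdx1, a peroxidase, had none: its 5 probe sets also name the predicted gene Gm21399, so it has no value here.

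The inflamed group had contact hypersensitivity. These mice were sensitised with 2% oxazolone, a contact allergen, were challenged on both sides of the ears with 10 µl of 1% oxazolone 5 days later, and were killed 24 hours after the challenge. The untreated group is labelled healthy and untreated, and the labels do not say whether it received solvent. Each group held 4 samples, each sorted from 3 mice as cells positive for CD31 and podoplanin and negative for the leukocyte marker CD45. Samples of equal number were taken through sorting and extraction together, which makes 4 pairs, and the submitters chose the pairs by the quality of the amplified material. In pooled RNA, fewer cells of a type and less RNA per cell cannot be told apart.

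In resting cells KEAP1 holds NRF2 for degradation by the proteasome. Oxidants and electrophiles modify cysteines of KEAP1, NRF2 then accumulates, and with a small MAF protein it binds antioxidant response elements of its target genes. This control acts largely on the NRF2 protein, which arrays do not measure. Sod2 encodes the superoxide dismutase of mitochondria and is known as an NF-kB target as well.

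The promoters of 3 members are shown because these members had the largest positive changes given below. They are RefSeq sequences of the build GRCm38.p6 in the direction of the gene, from 250 bases before to 50 bases after a start. Of the 10 members, 8 matched an entry, Txnrd1 with 3 starts, of which the one holding an antioxidant response element match is shown. In Txnrd1 (chr10:82858956-82859255, plus strand) and Gclm (chr3:122245307-122245606, plus strand) the capitals mark matches to the element's core, TGACNNNGC, searched on both strands. In Sod2 (chr17:13007589-13007888, plus strand) they mark matches to an NF-kB-like pattern of GGG and CC with any 5 bases between them.
Txnrd1: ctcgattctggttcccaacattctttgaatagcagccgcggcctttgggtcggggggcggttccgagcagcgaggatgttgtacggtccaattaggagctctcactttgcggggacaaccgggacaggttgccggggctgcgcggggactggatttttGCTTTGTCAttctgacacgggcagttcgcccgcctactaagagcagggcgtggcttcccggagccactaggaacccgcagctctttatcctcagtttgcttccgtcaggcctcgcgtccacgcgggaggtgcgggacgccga
Gclm: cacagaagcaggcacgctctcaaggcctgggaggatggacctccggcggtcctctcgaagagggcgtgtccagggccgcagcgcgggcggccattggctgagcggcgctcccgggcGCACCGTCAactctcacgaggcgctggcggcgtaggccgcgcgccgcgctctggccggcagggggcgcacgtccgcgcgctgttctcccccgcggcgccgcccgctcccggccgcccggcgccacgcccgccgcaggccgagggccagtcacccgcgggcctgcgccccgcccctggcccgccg
Sod2: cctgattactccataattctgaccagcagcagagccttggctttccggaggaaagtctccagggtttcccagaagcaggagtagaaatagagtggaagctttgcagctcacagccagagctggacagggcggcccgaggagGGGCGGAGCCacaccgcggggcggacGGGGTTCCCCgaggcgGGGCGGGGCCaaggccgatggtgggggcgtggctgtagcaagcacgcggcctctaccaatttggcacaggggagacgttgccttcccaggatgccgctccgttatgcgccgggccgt

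The match in Txnrd1 began 92 bases and that in Gclm 134 bases before the start, both on the minus strand. Nfe2l2, Srxn1 and Prdx1 held 1 match each as well, the Nqo1 and Keap1 windows held none, and Hmox1 and Gclc had no entry. In all, 5 of the 10 member promoters in the table, counting 3 of Txnrd1, had the core, against 12.4% of all 32851. The members were listed as genes of this pathway, so a higher share is no finding of these data. The Sod2 window held no match to the core and matches to the NF-kB-like pattern beginning 109, 83 and 67 bases before the start, the one at 83 on both strands. That pattern is loose and not particular to Sod2: 6 of the 10 member promoters and 50.8% of all promoters held it, with 2 matches each, left in lower case, in the Txnrd1 and Gclm windows shown. None of the matches overlapped a match of the other pattern in these 3 windows. A match describes letters only and shows no binding.

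Sod2 was the 1 member that passed the test, and it was higher in the cells sorted from inflamed skin. In limma 0 members passed as lower. At an unadjusted p under 0.05 there were 3 higher and 1 lower of 9, against 10.5% higher and 11.5% lower of all tested genes. Of these 3, Gclm only just reached that level (unadjusted p = 0.049997). Txnrd1, the thioredoxin reductase of the cytosol, and Gclm, the modifier subunit of the enzyme that limits glutathione synthesis, were higher in all 4 pairs but did not pass. In all, 3 of 9 members were higher in all 4 pairs, against 13.6% of tested genes. Nqo1, the quinone reductase often used as a readout of NRF2, was lower in 3 of 4 pairs and did not pass either. Hmox1, haem oxygenase 1, went both ways. Of all 10843 tested genes 3.91% were called higher and 3.02% lower, and 1 call among 9 tested members is too few to set against that share. The median change of the 9 members was 0.30 and that of all tested genes -0.09. A change here is the mean difference in log2 signal, inflamed minus untreated, over the 4 pairs. The test was limma's moderated test with the pair as a block, and a gene passed at an adjusted p under 0.05 over all tested genes.

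**Figure D1:**
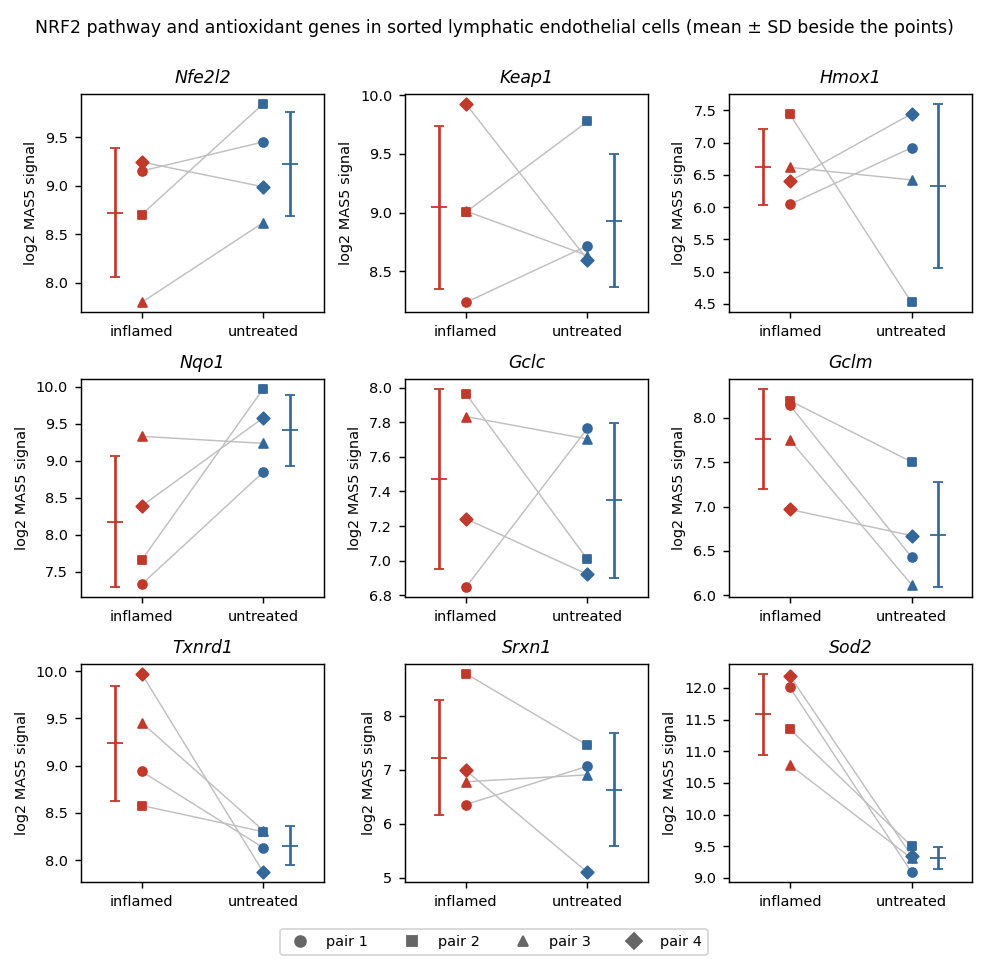
Log2 MAS5 signal (vertical axis) of the probe set representing each of the 9 measured members, with inflamed samples in red on the left and untreated samples in blue on the right of each panel. Lines join the samples of a pair, marker shapes give the pair, and bars beside the points are the mean ± SD of 4 samples. Only in the Txnrd1 and Sod2 panels do all 4 inflamed samples lie above all 4 untreated samples.

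Of the 2 regulators, Nfe2l2 had log2 signals of 9.15, 8.70, 7.80 and 9.25 in inflamed pairs 1 to 4, against 9.45, 9.85, 8.62 and 8.99 in the untreated samples of the same pairs. The groups overlapped, and pair 4 ran against the other 3. Its change was -0.50 ± 0.33 (SE; adjusted p = 0.420), with a 95% confidence interval of -1.24 to 0.23. A dim second probe set averaged 3.23 ± 1.29 in the inflamed and 4.37 ± 0.88 in the untreated group (SD, n = 4 each). Its pairs 1 to 4 differed by 0.64, -2.20, -2.95 and -0.07, so here pair 1 ran against the others. The set was above background on 3 of 4 inflamed arrays.

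Keap1 read 8.24, 9.00, 9.01 and 9.93 in inflamed samples, against 8.72, 9.78, 8.63 and 8.60 in untreated samples. It was lower in pairs 1 and 2 and higher in pairs 3 and 4. The change was 0.11 ± 0.38 (SE; adjusted p = 0.906; interval -0.75 to 0.98), so the data leave room for changes of nearly 2-fold (upper bound 1.97) in its transcript. Its other probe set was above background on 0 of 8 arrays and failed the filter on dim probe sets. Background is the 95th percentile of 27 bacterial control probe sets on each array.

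Of the classical inducible targets, Hmox1, which breaks down haem, had log2 signals of 6.04, 7.44, 6.62 and 6.40 in inflamed samples, against 6.92, 4.52, 6.42 and 7.45 in untreated samples. The lowest of the 8 values was untreated pair 2, which alone gave the mean its sign: the difference was 2.91 in pair 2 and -0.88, 0.19 and -1.05 in pairs 1, 3 and 4. The change was 0.30 ± 0.73 (SE; adjusted p = 0.864; interval -1.35 to 1.94), and -0.58 without pair 2.

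Nqo1 had 7.33, 7.65, 9.33 and 8.38 in inflamed samples, against 8.84, 9.97, 9.23 and 9.58 in untreated samples. Pairs 1, 2 and 4 were lower by more than 1 on the log2 scale, and pair 3 was 0.09 higher. The change was -1.23 ± 0.41 (SE), or 2.35-fold lower in signal, with an interval of -2.15 to -0.32 before adjustment and an adjusted p of 0.114. The range over 12 alternative settings was -1.68 to -0.87, with adjusted p between 0.0802 and 0.323.

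Glutathione is made in 2 steps, the first by an enzyme of a catalytic subunit, Gclc, and a modifier subunit, Gclm. Gclm read 8.14, 8.19, 7.75 and 6.97 in inflamed samples, against 6.43, 7.50, 6.12 and 6.67 in untreated samples. It was higher in every pair, by 1.71, 0.69, 1.63 and 0.29, while the groups overlapped at inflamed pair 4 and untreated pair 2. The change was 1.08 ± 0.48 (SE; 2.11-fold), with an interval of 1.48e-05 to 2.16 before adjustment, and did not pass (adjusted p = 0.227). A dimmer second probe set went the other way in 3 of 4 pairs, at 4.17 ± 0.72 in the inflamed and 4.68 ± 1.21 in the untreated group (SD, n = 4 each). With the probe sets of Gclm averaged, the change was 0.29 ± 0.47 (SE; adjusted p = 0.777).

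Gclc read 6.85, 7.96, 7.83 and 7.24 in inflamed samples, against 7.76, 7.01, 7.70 and 6.92 in untreated samples. The change was 0.12 ± 0.47 (SE; adjusted p = 0.920; interval -0.94 to 1.19), with pair 1 lower and the other pairs higher. Its second probe set differed by 0.74 ± 0.64, with the same 3 pairs higher. Without pair 2 the change of Gclc was -0.16.

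Txnrd1 returns electrons from NADPH to thioredoxin, which reduces peroxiredoxins. Its brightest probe set had log2 signals of 8.94, 8.58, 9.46 and 9.97 in inflamed samples, against 8.13, 8.30, 8.31 and 7.87 in untreated samples. The groups did not overlap, as for 6.3% of all tested genes on the higher side, and Sod2 was the 1 other member of which this held. The change was 1.08 ± 0.37 (SE), a 2.12-fold difference with an interval of 1.19 to 3.78-fold before adjustment, and did not pass (adjusted p = 0.124).

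Both other Txnrd1 probe sets were also higher in every pair and without overlap between groups. The first averaged 8.13 ± 0.06 in the inflamed and 6.64 ± 0.90 in the untreated group, and the second averaged 7.35 ± 0.30 in the inflamed and 5.09 ± 0.96 in the untreated group (SD, n = 4 each). Tested one by one they differed by 1.50 ± 0.48 (adjusted p = 0.107) and 2.26 ± 0.64 (SE; adjusted p = 0.0733). With the 3 probe sets averaged, the change was 1.61 ± 0.38 (SE) and passed (adjusted p = 0.0336). The 3 probe sets read the same RNA and are not separate evidence. The suffix x of the third marks probes that may bind other transcripts.

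Srxn1, sulfiredoxin, repairs peroxiredoxins that peroxide has over-oxidised. Its brightest probe set read 6.36, 8.78, 6.78 and 6.99 in inflamed samples, against 7.07, 7.45, 6.91 and 5.10 in untreated samples, higher in pairs 2 and 4 and lower in pairs 1 and 3. The change was 0.59 ± 0.58 (SE; adjusted p = 0.609; interval -0.71 to 1.90), and 0.16 without pair 4 or 1.03 without pair 1. Its other 3 probe sets differed by 0.52, 0.44 and 1.91. The last was higher in all 4 pairs, at 4.37 ± 0.78 in the inflamed and 2.46 ± 0.63 in the untreated group (SD, n = 4 each), but was above background on 1 of 4 untreated arrays, so that its size rests on values near background.

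Sod2 turns superoxide into hydrogen peroxide inside mitochondria. Its representative probe set had signals of 4119, 2612, 1762 and 4674 in inflamed samples, against 543.5, 725.0, 633.8 and 651.3 in untreated samples. On the log2 scale it averaged 11.58 ± 0.64 in the inflamed and 9.31 ± 0.17 in the untreated group (SD, n = 4 each). Every inflamed value exceeded every untreated value, and the 4 pairs differed by 2.92, 1.85, 1.47 and 2.84. The signal was 4.83-fold higher in inflamed samples, with a 95% confidence interval of 3.17 to 7.35-fold (adjusted p = 0.00164). It ranked 79 by p among the 10843 genes. The call ended without the intensity trend in limma, where the adjusted p was 0.0801. In that setting 0 members passed, with 3 higher at an unadjusted p under 0.05.

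Of the 4 Sod2 probe sets, 3 passed when each probe set was tested separately, where 5.72% of 19626 passed in either direction. They differed by 2.27, 2.58 and 2.85. The second of these had log2 signals of 10.46, 10.22, 9.86 and 10.43 in inflamed samples, against 7.95, 7.96, 7.31 and 7.42 in untreated samples, and its pairs lay close together, between 2.26 and 3.01. The third ranged from 0.84 in pair 2 to 4.85 in pair 1. The fourth differed by 1.08 ± 0.67 (SE; adjusted p = 0.409), with overlapping groups and pair 3 at -0.11.

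**Figure D2:**
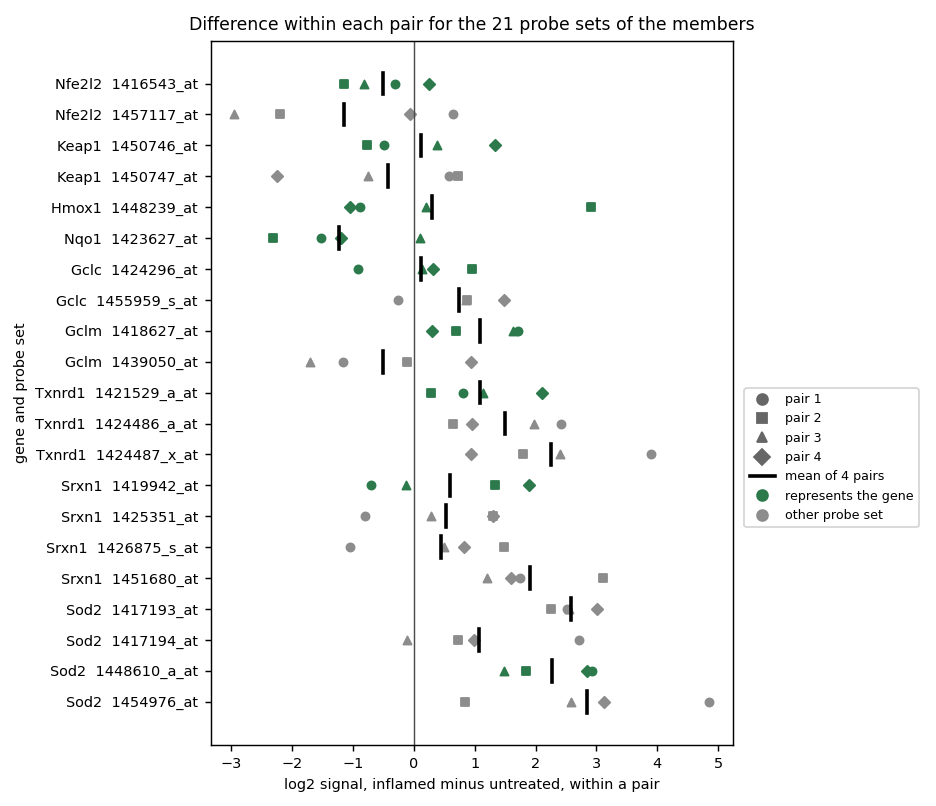
Difference in log2 signal within each pair, inflamed minus untreated (horizontal axis), for all 21 probe sets of the 9 members, listed down the page by gene. Marker shapes give the pair, black bars the mean of 4 pairs, and green the probe set that represents the gene. All points of the 3 Txnrd1 probe sets lie right of 0, the Sod2 probe sets do so except for pair 3 of 1 of them, and those of Keap1 and Hmox1 fall on both sides.

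Markers of some other cell types differed beside Sod2. The 3 tested neutrophil markers were all called higher, and the signal summed over the 10 neutrophil markers measured was 1999 to 3266 in inflamed and 208.5 to 649.1 in untreated samples. Csf3r and Cxcr2, the neutrophil receptors for a growth factor and for chemokines, were above background on 0 untreated arrays, as was Ltf, which was above it on 0 of 8 arrays, and the other 7 were above it on at least 1 untreated array. The summed monocyte and macrophage markers stood at 1396 to 7830 in inflamed and 610.5 to 2072 in untreated samples, with 1 of 9 tested called higher, and Ptprc, which encodes CD45, was above background on 3 of 4 inflamed and 0 of 4 untreated arrays. Dendritic cell markers summed to 476.4 to 964.0 in inflamed and 193.5 to 239.0 in untreated samples, with 1 of 3 tested called higher. Fibroblast markers summed to 10243 to 24350 in inflamed and 4391 to 19570 in untreated samples, with 1 of 8 called. All these sums were higher in all 4 pairs, while the summed lymphatic endothelial markers were lower in all 4. The latter stood at 14115 to 25034 in inflamed and 24140 to 31858 in untreated samples. Other lists were mixed. The blood endothelial sum was higher in 2 of 4 pairs, with 1 of 8 tested genes called higher and 1 lower. The pericyte and smooth muscle sum was higher in 2 pairs, the T cell sum in 1 and the erythroid sum in 3, with 0 genes of these lists called. The part of any of these cells in the rise of Sod2 was not tested.

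The array measures were as follows. The mean signal lay between 139.6 and 160.4 on inflamed and between 126.2 and 146.3 on untreated arrays, higher in all 4 pairs. The median log2 signal was lower in all 4 pairs, at 3.27 to 3.44 on inflamed and 3.56 to 3.74 on untreated arrays, and setting the medians equal took the genes called higher to 719, in place of 424. Between 53.5% and 62.6% of probe sets were above background. The 3' over 5' signal of Gapdh, as a log2 ratio and a measure of RNA and amplification quality, was 2.58 to 3.30 on inflamed arrays. It was 3.40 to 4.16 on untreated arrays, and the inflamed value was lower in all 4 pairs. The same ratio for Actb was -0.148 to -0.000810 over all arrays, a span of only 0.147, so the 2 controls stood at different levels. The sort genes Pecam1 and Pdpn, for CD31 and podoplanin, were above background on all 8 arrays but went opposite ways. Pecam1 changed by -0.72 and was higher in 1 of 4 pairs, while Pdpn changed by 0.56 and was higher in all 4. Neither passed in limma with each probe set tested separately (adjusted p = 0.187 and 0.0620). Both belong to the lymphatic endothelial list, whose sum was lower in all 4 pairs.

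**Figure D3:**
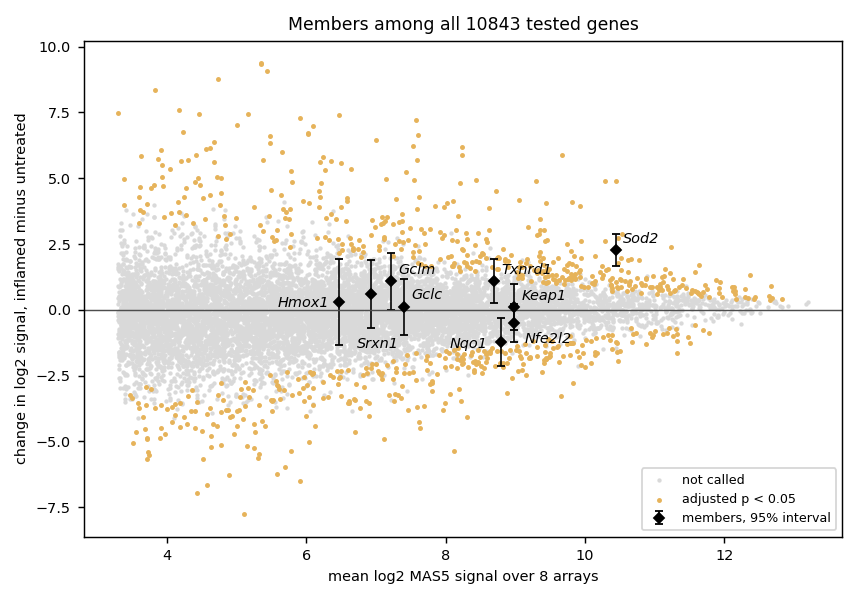
Change in log2 signal, inflamed minus untreated (vertical axis), against mean log2 signal over 8 arrays (horizontal axis) for all 10843 tested genes. Genes with an adjusted p under 0.05 are orange, and the 9 members are black diamonds with the 95% confidence interval before adjustment. Sod2 lies among the orange points at a change of 2.27, and the other members lie among the grey ones.

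Beyond the members, 85 other genes of the pathway were listed by role, of which 65 were tested. Among these 65, 4 were higher and 5 lower, where 3.91% of all tested genes were called higher and 3.02% lower. The calls within each list below are too few to set against these shares. The median change of the 65 was 0.09, against -0.09 for all tested genes. The 4 were Txn1, Gsr, Fth1 and Xdh, and the 5 were Ephx1, Sesn1, Gstm1, Gpx4 and Txnip. Without the intensity trend 0 remained higher and only Ephx1 remained lower, and median centring gave 7 higher and 3 lower.

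Of 9 other regulators 0 passed in limma, with 1 higher at an unadjusted p under 0.05. This was Mafk, a small MAF partner of NRF2 (adjusted p = 0.173). Mafk averaged 8.23 ± 0.32 in the inflamed and 7.13 ± 0.45 in the untreated group (SD, n = 4 each), without overlap. Mafg, another such partner, differed by 0.82 ± 0.39 (SE; adjusted p = 0.260) and was higher in all 4 pairs. With the probe sets of Mafg averaged, the change was 0.27 ± 0.42 (SE; adjusted p = 0.758).

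In the thioredoxin and peroxiredoxin system 1 of 9 other tested genes was higher and 2 were lower. Txn1, the thioredoxin of the cytosol and the substrate of Txnrd1, had log2 signals of 11.86, 11.66, 11.52 and 12.06 in inflamed samples, against 10.68, 10.08, 10.46 and 10.71 in untreated samples. The groups lay apart by more than their spread, and the rise was 1.29 ± 0.15 (SE; 2.45-fold; adjusted p = 0.00164), a call that ended with its probe sets averaged, where the change was 1.42 ± 0.43 (SE; adjusted p = 0.0782). Txnip, which binds and inhibits thioredoxin, was 10.45 ± 0.36 in the inflamed and 11.48 ± 0.35 in the untreated group (n = 4 each, SD; adjusted p = 0.00761), a fall that missed the threshold under median centring (adjusted p = 0.0520). The stress-induced Sesn1, sestrin 1, had 6.98, 4.28, 6.51 and 5.01 in inflamed samples, against 9.00, 9.20, 9.34 and 8.57 in untreated samples. Sesn1 was 10.08-fold lower (adjusted p = 0.00828), but not called without pair 3, where the change was -2.30 (adjusted p = 0.156).

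In glutathione synthesis and use, 1 of 9 other tested genes was higher and 1 lower, and both calls ended under several settings. Gsr, which regenerates reduced glutathione, was 9.94 ± 0.53 in the inflamed and 8.87 ± 0.39 in the untreated group (SD, n = 4 each; adjusted p = 0.0380). Its call ended without the pair block, under quantile normalization, with probe sets averaged, and without any 1 of the 4 pairs. Gpx4, which reduces lipid peroxides, was 7.86 ± 0.72 in the inflamed and 9.42 ± 0.61 in the untreated group (SD, n = 4 each; adjusted p = 0.0455), read by a probe set of the kind that may bind other transcripts. Its call ended without the pair block (adjusted p = 0.0543), under median centring, and without pair 2, 3 or 4.

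Among 15 other tested genes of quinone and electrophile detoxification, 0 were higher and 2 lower in limma. At an unadjusted p under 0.05 there were 3 each way, against 10.5% higher and 11.5% lower of all tested genes. Ephx1, the microsomal epoxide hydrolase, had log2 signals of 3.51, 5.46, 4.32 and 4.24 in inflamed samples, against 8.78, 9.09, 8.95 and 9.24 in untreated samples. All inflamed values were above background and far under the untreated ones, a 24.8-fold lower signal (change -4.63 ± 0.53, SE; adjusted p = 0.00148), and the call held in all 12 alternative settings. The size rests on inflamed values near background: on the log2(signal + 16) scale the change was -3.81. Gstm1, a glutathione transferase with close paralogs that its probe set may also bind, was 7.65 ± 1.57 in the inflamed and 10.25 ± 0.37 in the untreated group (SD, n = 4 each; adjusted p = 0.0215). Its call ended without pair 2, 3 or 4. Of the keratinocyte markers, 3 of 6 tested were called lower. Their sum was 175.7 to 1371 in inflamed and 997.9 to 4724 in untreated samples. These ranges overlapped, and the sum was higher in the inflamed sample in 1 of 4 pairs. The lymphatic endothelial markers given above had 3 of 9 called lower and a sum lower in all 4 pairs. The part of either cell type in these falls was not tested.

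Haem and iron genes other than Hmox1 gave 1 call among 6 tested. Fth1, the heavy chain of the iron store ferritin, rose by 0.40 ± 0.08 (SE; 1.32-fold; adjusted p = 0.0176), with 13.03 ± 0.27 in the inflamed and 12.63 ± 0.24 in the untreated group (SD, n = 4 each). The groups overlapped and the call rested on the pairing: without the pair block its adjusted p was 0.197. It also ended under quantile normalization (adjusted p = 0.279) and without pair 1, 2 or 3. Slc40a1, the iron exporter, had 5.76, 5.42, 5.06 and 3.58 in inflamed samples, against 7.33, 5.72, 3.95 and 6.82 in untreated samples, with pair 3 opposed to the others (adjusted p = 0.524).

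Among the other genes of superoxide and hydrogen peroxide removal, 0 of 4 passed in limma, with 1 higher and 1 lower at an unadjusted p under 0.05. Sod3, the extracellular superoxide dismutase, was higher in all 4 pairs, by 1.29 ± 0.35 (SE; adjusted p = 0.0595), and passed under median centring (adjusted p = 0.0209) and with probe sets averaged. Cat, catalase, was lower in all 4 pairs, by a change of -0.78 ± 0.27 (adjusted p = 0.126). Of 7 tested genes of NADPH supply 0 passed in limma, and G6pdx, which had no probe set of its own, was not tested. At an unadjusted p under 0.05 there were 0 higher and 1 lower, against 11.5% of all tested genes on the lower side. The nearest were Nnt, the mitochondrial transhydrogenase, at -0.78 ± 0.27 (adjusted p = 0.123), which passed under quantile normalization (adjusted p = 0.0484), and Pgd, of the pentose phosphate pathway, at 0.42 ± 0.24 (SE; adjusted p = 0.340).

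Of the enzymes that produce superoxide or peroxide, 1 of 6 tested was higher. Xdh, xanthine dehydrogenase, had log2 signals of 8.12, 9.97, 10.19 and 9.29 in inflamed samples, against 5.88, 7.96, 6.08 and 5.86 in untreated samples. The groups were close only at inflamed pair 1 and untreated pair 2, and the signal was 7.73-fold higher (change 2.95 ± 0.46, SE; adjusted p = 0.00666). Nox4, an NADPH oxidase of vascular cells, was 2.86 ± 1.16 in the inflamed and 5.91 ± 0.90 in the untreated group (SD, n = 4 each) and did not pass (adjusted p = 0.0770). It passed without the pair block (adjusted p = 0.0423), and 2 of its 4 inflamed values were under background. The neutrophil, macrophage, dendritic cell and fibroblast sums given beside Sod2 were higher in the same samples as Xdh. Their part was not tested.

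**Figure D4:**
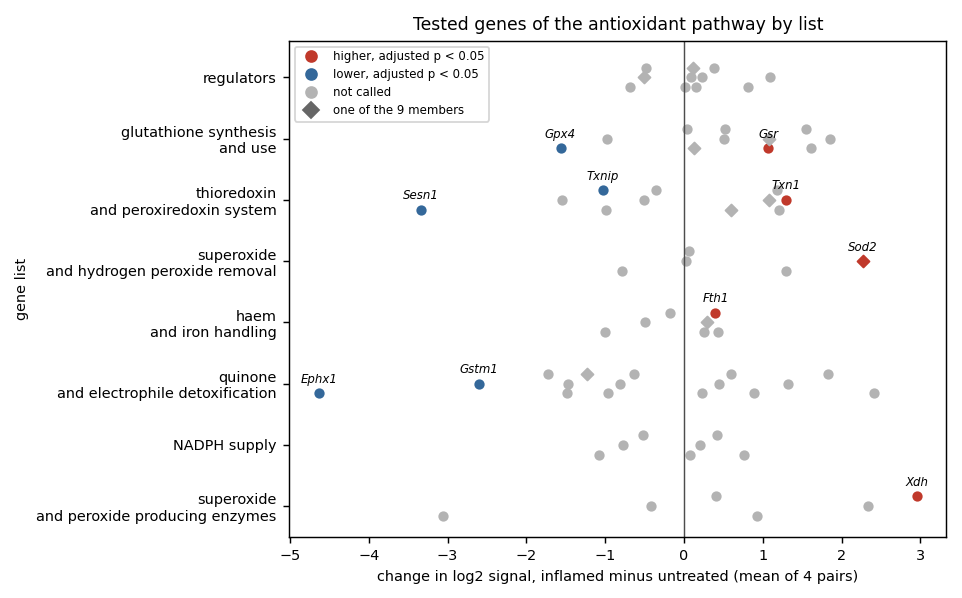
Change in log2 signal, inflamed minus untreated (horizontal axis), of each tested gene in the 8 pathway lists, listed down the page by role, with the 9 members as diamonds. Red marks genes called higher, blue genes called lower and grey genes not called. Called genes stand on both sides of 0 in the thioredoxin and glutathione lists, and those of the detoxification list stand only on the lower side.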

How the data were processed

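The 8 arrays were single-colour oligonucleotide arrays hybridised with biotin-labelled cDNA, amplified from total RNA of sorted cells by linear isothermal amplification per the labels' protocols. The authors deposited linear intensities, 1 for each probe set on each array, and the submitters' processing notes name MAS5 as the tool. Its version and scaling target were not given in the sources used here. No detection calls were used. The table held 45101 probe sets, of which 64 were controls, and no arrays were identical.

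The intensities were put on the log2 scale with no pseudocount, and the authors' scaling was kept. The medians of the arrays spanned 0.468 on that scale and were lower on all inflamed than on all untreated arrays, so the scaling bears on the calls. A probe set was left out where its mean over arrays fell below 3.30 on the log2 scale, the median of all, and the brightest probe set naming a gene alone represented it. The test was that of limma 3.58.1, run in R 4.3.3 (lmFit and eBayes with an intensity trend, two-sided, Benjamini-Hochberg over 10843 genes, threshold 0.05), with the pair as a block. SE is the moderated standard error, SD the spread of 4 samples. The number of arrays limits the precision, with 3 residual degrees of freedom, and p-values refer to pools of 3 mice. To these limma added a median of 6.27 prior degrees of freedom, estimated across genes, so tests and intervals also rest on other genes.

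The series' design text gives the pairing. Across genes, which are not independent replicates, the deviations of paired samples from their group means correlated at 0.16, 0.00, 0.08 and 0.03. The block changed the calls of Gsr, Gpx4, Fth1 and Nox4, given beside them. Members, lists, motifs and tests were chosen with earlier results of these data known. Named were the 10 members, every other listed gene past the threshold and, where fewer than 2 of a list passed, the 2 with the smallest p. Of 85 other listed genes, 76 had a probe set of their own. Alternatives were the fit without the block, median centring, quantile normalization, no intensity trend, no filter or a stricter one (the 65th percentile), log2(signal + 16), averaged probe sets, and each pair left out. Testing each probe set separately was added after seeing the data, as was the background level.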

Additional observations from a re-analysis of the deposited data

Results flagged for a closer look

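Of 76 groups of 4 samples, 3 had a sample that stood apart from the other 3, where chance alone marks about 1 group in 20. The highest untreated Keap1 value, 9.78 in pair 2, lay so far above the next, 8.72, that the gap made up 0.899 of the group's range. For Xdh in untreated samples the gap was 0.893 of the range, with pair 2 at 7.96 and the next sample at 6.08. For Txnip in inflamed samples it was 0.886, with pair 4 at 10.99 and the next at 10.32.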

How the results depend on the processing

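Sod2 kept its direction in all 15 alternatives and its call in 13 of them: it was not called without the intensity trend (change 2.27, adjusted p = 0.0801) or on 1 of its other probe sets (1.08, adjusted p = 0.409). Leaving out each pair gave it changes of 2.06 to 2.54, all called. Txnrd1 became called with probe sets averaged (1.61), where 2 members were higher; no intensity trend left 0. The sign turned, with no call either way, when pairs were left out for Hmox1 (-0.58 to 0.74), Gclc (-0.16 to 0.47) and Keap1 (-0.29 to 0.41), with the values below 0 being those of Hmox1 and Gclc without pair 2 and of Keap1 without pair 4, and for Gclm on its other probe set (-0.51). Other pathway genes called were 2 higher without the replicate block, 2 higher under quantile normalization, 7 higher and 3 lower under median centring, and 0 higher and 1 lower without the trend; without each pair, 2 to 3 were higher and 2 to 5 lower. All genes called were 719 higher under median centring, where the median over all tested genes was 0.22 in place of -0.09 and 76.0% of calls were higher in place of 56.4%, and 94 higher and 47 lower without the trend; without each pair, 194 to 293 were higher and 103 to 185 lower. For the pairing, the fit with no replicate block changed no member's call. Where a count fell in these settings, the cause was not tested. The settings without a pair also had fewer samples. Dim probe sets of Nfe2l2, Keap1 and Srxn1 lie near background and limit what can be read from them.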
